A study of Mus musculus with 27 samples.

Results

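Mouse embryonic stem cells that carried a short hairpin RNA (shRNA) against Sox17 were compared with cells that carried one against luciferase before differentiation (day 0) and at its start (day 2). The arrays were chosen by their labels: 3 with Sox17 shRNA and 4 with luciferase shRNA, together 7 of the 27 arrays of the series. All cells were of the AB2.2 line and were transduced with a lentiviral vector that also makes enhanced green fluorescent protein, on which they were sorted. The control arm, shLUC, holds 2 arrays at day 0 and 2 at day 2; the other arm, shSOX17, holds 1 array at day 0 and 2 at day 2, because the labels record a failed replicate. Cells of day 2 were growing as embryoid bodies, aggregates in which stem cells differentiate, and cells of day 0 had not yet been aggregated. The labels name a biological replicate once, for the failed one, and do not say whether they are separate transductions, so the hairpin and the cell population that received it cannot be told apart.

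Sox17 is a transcription factor that directs endoderm formation and is little expressed in undifferentiated stem cells. An shRNA is processed into a short RNA that guides the breakdown of matching messenger RNA. Differences at days 0 and 2 thus show how far the populations differed before or as the target came on. Mouse stem cells in long culture are known to gain or lose whole chromosomes, and to move between a naive state and one primed for differentiation. They also keep many germline genes under repression that can loosen with chromatin state.

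Sox17 itself was near background at day 0, and at day 2 both its probe sets read above 5.53, the median of all values, in the control arrays. The probe set tested read 5.28 and 5.28 (log2) in the control arrays and 5.39 in the Sox17 shRNA array at day 0. At day 2 it read 6.09 and 5.98 against 5.85 and 5.33. The arms differed by -0.22 over both days (SE 0.17, limma adjusted p = 0.483), which did not pass the test. Without the 2 Sox17 shRNA arrays that lack Y-linked signal (described with the Y genes) the difference was -0.71 (adjusted p = 0.0495), from the second array of day 2 alone. A second Sox17 probe set, which did not represent the gene in the test, read 3.75 and 3.92 against 3.69 at day 0, and 6.01 and 6.17 against 5.12 and 4.48 at day 2. On it the groups did not overlap at day 2. Its relative Sox7, which marks primitive endoderm, read 6.12 and 5.83 against 5.80 and 5.00 at day 2, with a shared difference of -0.23 (adjusted p = 0.610) that was 0.05 when the second day 2 array with Sox17 shRNA was left out and -0.97 (adjusted p = 0.0201) when that array alone was kept. Cer1, an antagonist of Nodal and Wnt signals, lay between 3.75 and 4.45 on both its probe sets in all 7 arrays, too low to be tested. Hhex, an endoderm transcription factor, was higher with Sox17 shRNA (0.83, SE 0.18, adjusted p = 0.0168). It read 6.45 and 6.48 against 6.99 at day 0 and 5.86 and 6.32 against 7.49 and 6.77 at day 2; without control replicate 1 of day 2 the adjusted p was 0.0789, and with all 27 arrays in the fit it was 0.235.

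The arrays had the profile of stem cells. Pou5f1, the core pluripotency factor, read 12.24 to 12.59 in all 7 arrays. Zfp42, a naive marker, read 12.45 and 12.45 in controls and 12.26 with Sox17 shRNA at day 0, and 8.84 to 9.36 at day 2. Fgf5, a marker of the primed state, lay between 3.61 and 4.47 at day 0 and between 9.04 and 9.32 at day 2. In both arms the naive marker was thus lower and the primed one higher on the day 2 arrays. Defining markers of trophoblast (Cdx2, Elf5, Gata3) lay at or below 5.55 on every array. Of the fibroblast markers, Col1a1 and Col3a1 lay at or below 5.03, Col1a2 between 6.61 and 7.07 and Thy1 between 5.20 and 6.32. Of these 7 genes only Cdx2, near background, lay on the same side of the controls at both days. It read 5.38 and 5.33 against 5.24 at day 0 and 5.55 and 5.38 against 5.24 and 5.15 at day 2. Thy1 and Col3a1 lay above both controls at day 0 and below both at day 2. Thy1 read 5.40 and 5.20 against 5.43, and then 6.32 and 6.31 against 6.01 and 6.22. Measures of RNA quality overlapped between the arms: the 3' minus 5' difference of the actin control probe sets was 0.33 to 0.47 and that of Gapdh -0.26 to -0.20.

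Y-linked genes separated replicates within the Sox17 shRNA arm. Eif2s3y, a translation factor gene of the Y chromosome, read 9.30 and 9.07 in controls and 3.39 with Sox17 shRNA at day 0. At day 2 it read 8.78 and 8.54 in controls, 3.15 on replicate 1 and 8.66 on replicate 2 of the Sox17 shRNA arm. Replicate 1 of that arm therefore was near background for this gene while replicate 2 lay among the controls. Uty, a second Y gene, gave the same order (6.03 and 6.19 against 3.41 at day 0, and 6.08 and 6.29 against 3.75 and 6.11 at day 2). The split held on the other days too: over the whole series Eif2s3y lay between 3.09 and 3.41 on the 7 replicate 1 arrays of the Sox17 shRNA arm, between 8.66 and 9.20 on its 6 replicate 2 arrays, and between 8.05 and 9.30 on the 14 control arrays. The only Sox17 shRNA array of day 0 is one of these low replicate 1 arrays, called Y-negative from here on. Counts that lead a result, and named genes whose call depends on it, are therefore also given without the Y-negative arrays of days 0 and 2, which leaves 1 Sox17 shRNA array, of day 2.

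Over both days together, with day as a block, 1066 of 12408 genes differed between the arms (limma, Benjamini-Hochberg adjusted p under 0.05), 8.59% of those tested. With Sox17 shRNA 694 were higher (5.59%) and 372 lower (3%). Most differences were small: 17 of the higher and 33 of the lower genes differed at least 2-fold. At each day every Sox17 shRNA array lay above every control array for all 694 higher genes (15.7% of all genes tested) and below for 361 of the 372 lower genes (11.9% of all); since the calls were made on these same arrays, nothing is read from this separation. Tested by day, 996 genes differed at day 0 (8.03%; 643 higher, 5.18%, and 353 lower, 2.84%) and 1088 at day 2 (8.77%; 698 higher, 5.63%, and 390 lower, 3.14%). At both days 328 genes were called with the same sign, 32.9% of the day 0 calls and 30.1% of those of day 2, while 11 were called with opposite sign. The days share no array, but both tests took each gene's spread from a common fit of the arrays of both days. The calls of the days are thus not independent, and the overlap is not read as agreement between them. On which chromosomes the genes called at both days lie was not counted. Without the Y-negative arrays 954 genes were called (593 higher, 361 lower). Without control replicate 1 of day 2 the count over both days was 575, that of day 0 was 480 without control replicate 1 of day 0 and 274 without replicate 2, and that of day 2 was 448 without control replicate 1 of day 2 and 673 without replicate 2. The single array of day 0 was taken to vary as the other groups did.

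**Figure D1:**
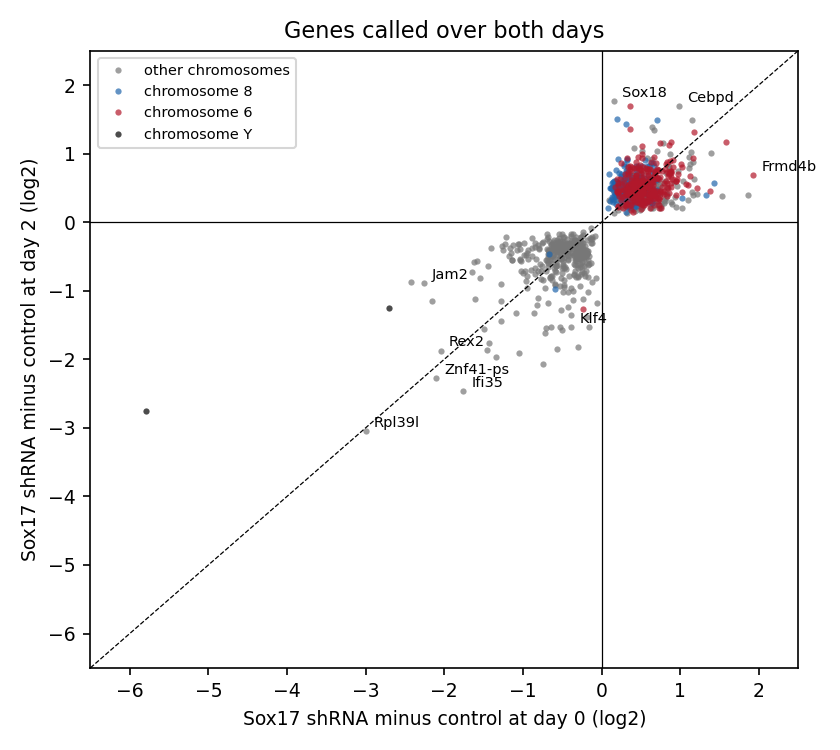
Log2 difference between the arms at day 0 (x axis, 1 Sox17 shRNA array against 2 control arrays) and day 2 (y axis, 2 against 2) for the 1066 genes called over both days, each point a gene coloured by chromosome; the dashed line marks equal differences. Genes of chromosomes 6 and 8 make up most of the higher side, and Rpl39l lies apart from the other named genes on the lower side.

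The higher genes were concentrated on chromosomes 6 and 8. These chromosomes held 445 of the 694 higher genes (64.1%) but 1313 of the 12408 genes tested (10.6%). On chromosome 6, 279 of 624 genes tested were higher (44.7%) and 1 was lower. On chromosome 8, 166 of 689 were higher (24.1%) and 2 were lower. On the rest of the genome 249 of 11095 genes were higher (2.24%) and 369 lower (3.33%). This pattern was noticed in the data, so it is given as a description with no test.

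The median difference was 0.32 (log2) on chromosome 6, a 1.25-fold higher level, and 81.4% of its genes lay above 0. With no filter on low values, which adds genes near background, it was 0.127. On chromosome 8 the median was 0.22 and 83.5% of the genes lay above 0. The medians of the other 18 chromosomes compared (X included, Y left out) lay between -0.03 and 0.02. When the genes of each chromosome were cut in gene order into 10 blocks, every block had a positive median over both days, from 0.19 to 0.41 on chromosome 6 and from 0.17 to 0.27 on chromosome 8. At day 0 alone the block medians of chromosome 8 ran from -0.004 to 0.14, with 3 of the 10 at or below 0.02, and those of chromosome 6 from 0.26 to 0.42. DNA copy number was not measured.

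The chromosomes differed in the size of the shift on the array of day 0. Against the control mean of the same day, the chromosome 6 median was 0.32 on the day 0 array and 0.27 and 0.32 on the day 2 arrays. The chromosome 8 median was 0.08 at day 0, above the 0.04 reached by any of the 18 other chromosomes on these arrays, and 0.31 and 0.33 at day 2. Chromosome 6 was therefore shifted alike on all 3 arrays, and chromosome 8 more on both day 2 arrays than on the one of day 0. Control arrays departed from their own mean by at most 0.02 on chromosome 6 and 0.03 on chromosome 8. With 2 controls at each day these departures are equal and opposite, from a mean that includes the array itself. Here and at later days they thus understate the spread of an array set against a mean it is not part of. At day 0, 200 genes of chromosome 6 and 46 of chromosome 8 were higher, and at day 2 257 and 247. At day 2 the Y-negative array had medians of 0.27 and 0.31 on chromosomes 6 and 8, and the Y-positive one 0.32 and 0.33.

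**Figure D2:**
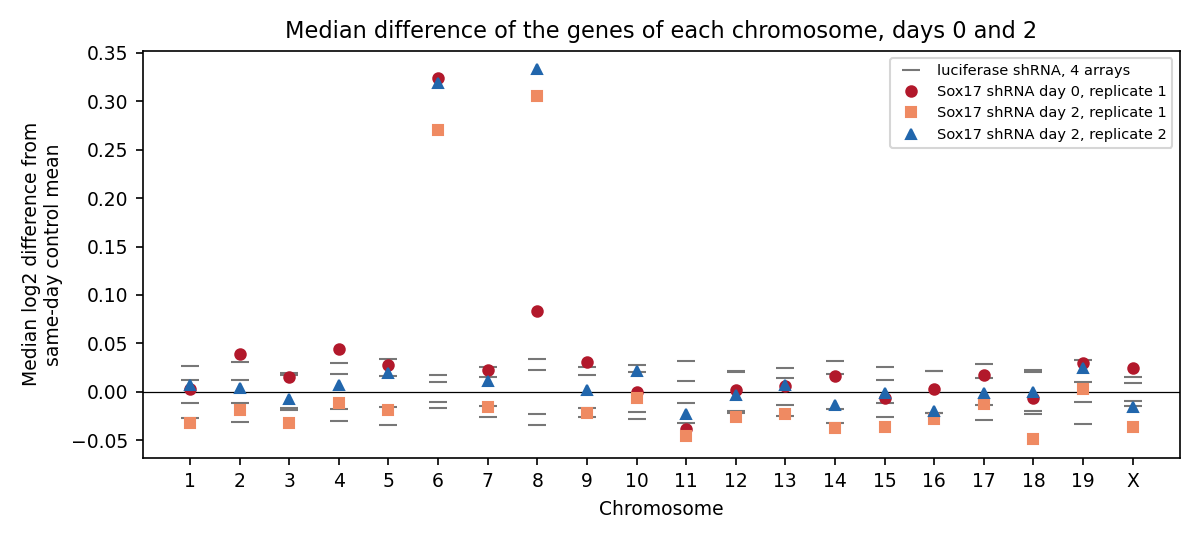
Median log2 difference from the control mean of the same day (y axis) over the genes of each chromosome (x axis), 1 symbol per array: circles, squares and triangles are the 3 Sox17 shRNA arrays, and dashes the 4 control arrays. Chromosome 6 lies between 0.27 and 0.32 on all 3 Sox17 shRNA arrays, and chromosome 8 at 0.08 on the day 0 array and at 0.31 and 0.33 on those of day 2.

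The shift continued on other arrays of the series. On all 10 Sox17 shRNA arrays of days 4 to 10 the chromosome 6 median lay between 0.14 and 0.34 and that of chromosome 8 between 0.12 and 0.38, while control arrays of these days stayed within 0.05 of their mean. On chromosome 8 the replicate 1 arrays had medians of 0.08 at day 0, 0.31 at day 2 and 0.38 at day 4. The labels do not say whether these arrays share a cell population. A change with day and a difference between cultures therefore cannot be told apart. At each of the 5 later days the Y-negative replicate 1 lay above the Y-positive replicate 2 on both chromosomes. The gap was narrowest on chromosome 6 at day 5 (0.27 against 0.23) and widest on chromosome 8 at day 8 (0.34 against 0.12). How the Y signal and the shift relate was not tested.

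**Figure D3:**
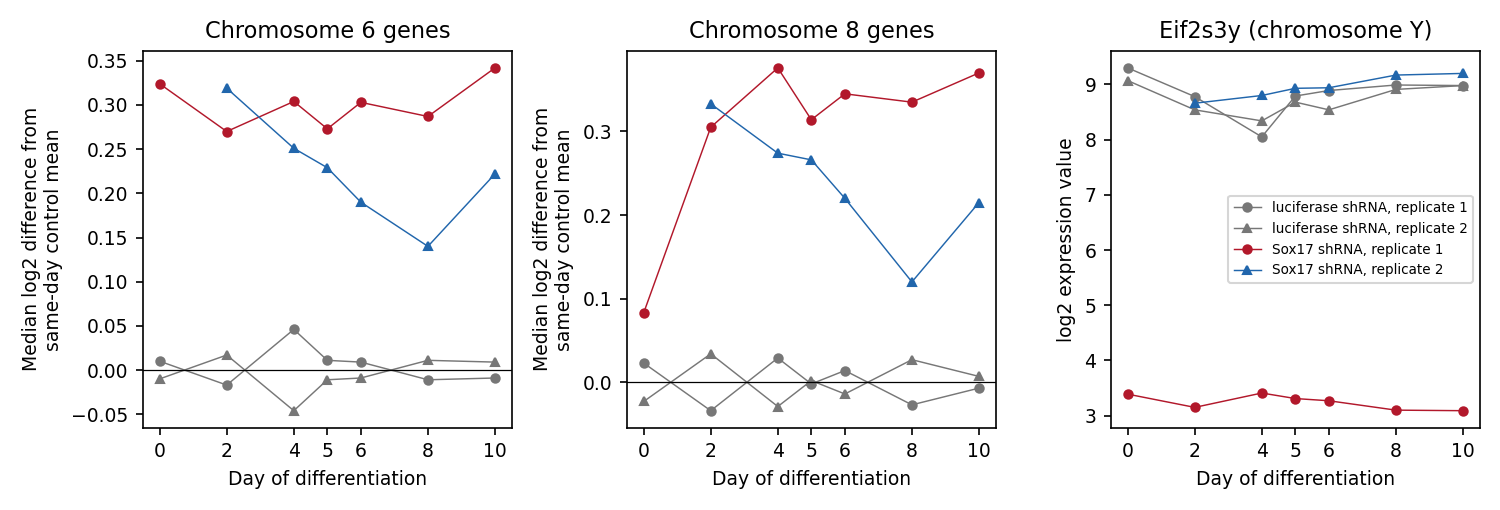
Values of all 27 arrays by day of differentiation (x axis): the median log2 difference from the same-day control mean for chromosome 6 and for chromosome 8 genes, and the log2 level of the Y-linked gene Eif2s3y. Lines join arrays of the same arm and replicate number; both Sox17 shRNA lines lie above the controls for chromosomes 6 and 8, and replicate 1 lies between 3.09 and 3.41 for Eif2s3y on every day.

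Among the named higher genes of these chromosomes, some exceeded the shift. Gadd45a, Igf2bp3, Pdia4, Frmd4b, Snd1 and Exoc3l were chosen for the size of their rise on these same arrays. That they exceeded the shift thus followed from the choice, and nothing is read from it. Gadd45a, a stress-induced growth arrest gene on chromosome 6, read 8.33 and 8.14 against 9.41 at day 0 and 7.73 and 7.62 against 9.21 and 8.77 at day 2. It was 2.39-fold higher (1.26, SE 0.12, adjusted p = 2.29e-04), and 0.95 remained after each array was centred by chromosome (adjusted p = 0.00194). Igf2bp3, an RNA-binding protein gene of embryonic cells, read 8.96 and 9.07 against 9.89 and then 8.79 and 9.12 against 9.99 and 10.26, with 6 of 6 probe sets of the same sign (1.06, adjusted p = 5.05e-04; centred 0.75). Both genes were named by a rule that asked for arms without overlap at both days. Gdf3, a Nodal-like ligand whose gene lies beside those of Dppa3 and Nanog, was 0.75 higher (adjusted p = 0.00179; centred 0.45). Pdia4, an endoplasmic reticulum chaperone (1.34), Frmd4b (1.18), Snd1 (1.03) and, on chromosome 8, Exoc3l (1.17) also kept the call after centring. Pdia4 lost the call without the Y-negative arrays (0.78, adjusted p = 0.0621), and Frmd4b was then 0.68 higher. For Snd1, 2 of 3 probe sets had this sign.

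Of the 30 named genes of chromosomes 6 and 8 that were called, 13 kept the call after centring and 17 lost it. Some of the 17 stayed above their chromosome without passing the test, such as Nap1l5 (0.86), Dppa3 (0.56), Tubb3 (0.46) and Gata2 (0.38), and others lay close to it. Gapdh, a glycolytic enzyme often used as a reference gene, was 0.21 higher (adjusted p = 0.00110) on chromosome 6 and -0.09 after centring, a change of sign. Gars, which charges tRNA with glycine, went from 0.32 to 0.01, Rps4l, a ribosomal protein gene, from 0.38 to 0.07, and Calr, a chaperone, from 0.31 to 0.09. The calls of Calr and Dnajb1, a chaperone cofactor on chromosome 8, were lost without control replicate 1 of day 2 (adjusted p = 0.0552 and 0.0937). All 3 called members of the unfolded protein response list (Calr, Edem1, Pdia4, of 23 tested) lie on these chromosomes, where 445 of 1313 genes were higher, beside 5.59% of all genes. None of its 19 members elsewhere were called (limma, 0 called), beside 2.24% of genes there, and without the Y-negative arrays 0 members were higher. Both called members of the heat shock list (Dnajb1 and Hmox1, of 15 tested) and both of the amino acid stress list (Gars and Mthfd2, of 25) also lie on chromosomes 6 and 8, with 0 of 13 and 0 of 20 members elsewhere called. A count of 2 of 25 is close to the 5.59% of all genes that were higher. Of these lists 2 and 4 members were higher without the Y-negative arrays. Hmox1, a haem-degrading enzyme, kept its call after centring (0.40, adjusted p = 0.0369). Read by day, the unfolded protein response list had a median of 0.30 at day 0, from 1 Sox17 shRNA array, against 0.02 over all genes. At day 2, 4 of its members and 7 of the amino acid stress list were higher, with 0 and 1 lower, against 5.63% and 3.14% of all genes. On which chromosomes these day 2 calls lie was not counted. At day 2, 257 of 624 genes of chromosome 6 and 247 of 689 of chromosome 8 were higher, so nothing is read from these counts.

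The 15 named genes with the largest falls all lay on other chromosomes, and 4 of them are members of the germline list. Rpl39l, a ribosomal protein paralog of germ cells, read 9.56 and 9.54 in controls and 6.55 with Sox17 shRNA at day 0, and 8.63 and 8.49 against 5.49 and 5.53 at day 2. It was 8.17-fold lower over both days (-3.03, SE 0.09, adjusted p = 1.10e-08), and the Y-positive array of day 2 was as low as the Y-negative one. Its X-linked paralog Rpl39 was lower too (-1.15, SE 0.24, adjusted p = 0.0140), with 6.45 and 6.93 against 6.19 at day 0 and 8.46 and 7.79 against 6.83 and 6.27 at day 2. That call was lost without control replicate 1 of day 2 (adjusted p = 0.0566). Probes of both genes could share transcripts, which was not tested.

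Of the germline list, 6 of 34 members tested were lower and 0 were higher, against 3% and 5.59% of all genes, with a median of -0.23 against 0.01 over all genes. Mael, needed for transposon silencing in germ cells, read 6.24 and 6.00 against 4.69 at day 0 and 7.48 and 7.08 against 5.88 and 5.17 at day 2 (3.09-fold lower, -1.63, SE 0.18, adjusted p = 6.11e-04). Morc1, a germ cell chromatin ATPase, read 10.58 and 10.58 against 9.53, and 7.53 and 7.37 against 5.87 and 5.21 (2.96-fold lower, -1.56, adjusted p = 8.45e-04). For both genes the arms did not overlap at either day, which a rule that named them required. Tex19.1, a transposon control gene (-0.91, adjusted p = 0.00528), Dazl, a germ cell RNA-binding protein (-0.96, adjusted p = 0.00502) and Meioc, a regulator of meiotic entry (-1.34, adjusted p = 0.0219), completed the 6. The call of Meioc was lost without either control array of day 2 (adjusted p = 0.0924 and 0.0979), and that of Dazl without the Y-negative arrays (0.0671). Without those arrays Meioc was lower by -2.41, Tex19.1 by -1.39 and Rpl39 by -1.86. Over the alternatives 5 to 10 members were lower, and 7 without the Y-negative arrays. In these RNA samples fewer cells that express a gene and less RNA per cell cannot be told apart.

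The promoter windows are shown of the 5 lower germline genes that have one, and of Hormad1, a meiotic chromosome protein that was lower at day 0 (-2.94, adjusted p = 2.55e-04); each is 300 bases around the gene's start (RefSeq, GRCm38.p6, 5' to 3' on the gene's strand). Capitals mark TCCCGC, a core found in E2F sites, on either strand (GCGGGA on the other) and CACGTG, an E-box that reads alike on both strands.
Rpl39l, chr16:10169978-10170277, plus strand: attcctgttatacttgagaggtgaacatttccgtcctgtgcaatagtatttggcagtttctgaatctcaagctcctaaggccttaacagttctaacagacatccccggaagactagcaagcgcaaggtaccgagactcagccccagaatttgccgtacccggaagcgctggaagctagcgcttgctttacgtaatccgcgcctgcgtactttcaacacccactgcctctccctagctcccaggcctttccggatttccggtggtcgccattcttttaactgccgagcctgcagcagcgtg
Mael, chr1:166238695-166238994, minus strand: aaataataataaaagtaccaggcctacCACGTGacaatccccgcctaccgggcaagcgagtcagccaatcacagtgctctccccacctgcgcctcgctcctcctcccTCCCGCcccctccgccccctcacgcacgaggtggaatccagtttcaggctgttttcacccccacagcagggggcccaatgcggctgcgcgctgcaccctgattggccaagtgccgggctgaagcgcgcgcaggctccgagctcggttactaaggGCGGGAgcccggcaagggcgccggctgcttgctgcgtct
Tex19.1, chr11:121145893-121146192, plus strand: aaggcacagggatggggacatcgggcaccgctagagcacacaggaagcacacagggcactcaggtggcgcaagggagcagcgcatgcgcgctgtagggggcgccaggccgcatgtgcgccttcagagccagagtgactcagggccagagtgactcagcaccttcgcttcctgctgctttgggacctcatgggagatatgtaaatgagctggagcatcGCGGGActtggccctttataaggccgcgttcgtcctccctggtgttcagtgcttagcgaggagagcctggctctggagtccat
Dazl, chr17:50293571-50293870, minus strand: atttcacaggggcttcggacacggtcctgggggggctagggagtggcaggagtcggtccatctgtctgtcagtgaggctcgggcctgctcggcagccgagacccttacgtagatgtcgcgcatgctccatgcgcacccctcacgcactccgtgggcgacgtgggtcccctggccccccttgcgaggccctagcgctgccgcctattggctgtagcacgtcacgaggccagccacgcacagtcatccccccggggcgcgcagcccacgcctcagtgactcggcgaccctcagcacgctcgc
Meioc, chr11:102665335-102665634, plus strand: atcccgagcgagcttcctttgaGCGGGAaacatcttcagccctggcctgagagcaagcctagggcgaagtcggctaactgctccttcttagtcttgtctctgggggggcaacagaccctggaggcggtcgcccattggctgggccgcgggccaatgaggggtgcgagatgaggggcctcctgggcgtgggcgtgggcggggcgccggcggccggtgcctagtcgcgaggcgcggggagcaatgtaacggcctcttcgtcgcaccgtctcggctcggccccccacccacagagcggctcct
Hormad1, chr3:95559427-95559726, plus strand: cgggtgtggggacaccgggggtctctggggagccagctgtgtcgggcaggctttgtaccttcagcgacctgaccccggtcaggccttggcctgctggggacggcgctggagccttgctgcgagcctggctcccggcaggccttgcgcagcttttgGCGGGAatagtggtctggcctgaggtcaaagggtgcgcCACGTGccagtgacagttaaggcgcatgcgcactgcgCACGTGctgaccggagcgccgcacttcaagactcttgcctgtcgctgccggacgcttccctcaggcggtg

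Mael had both motifs (TCCCGC at 2 places and CACGTG at 1), Hormad1 had TCCCGC once and CACGTG at 2 places, Tex19.1 and Meioc had TCCCGC once, and the windows of Rpl39l and Dazl held neither. TCCCGC was in 36.4% of the windows of the lower genes matched (302 of 372) and 40.0% of those of the higher genes (580 of 694), against 35.5% of those of the genes tested (9997 of 12408 matched) and in 5410 of all 27025 windows. CACGTG was in 15.2% of those of the lower and 7.41% of those of the higher genes, against 10.2% of those of the genes tested and 7.24% of all. Of the 28 germline members with a window, 42.9% held TCCCGC and 21.4% CACGTG. These shares are descriptions, and a match is not a bound site.

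Zinc finger genes that lie next to each other on chromosome 4 were lower together. Znf41-ps, annotated as a zinc finger pseudogene, read 9.62 and 9.62 against 7.50 at day 0 and 8.13 and 8.04 against 5.52 and 6.10 at day 2 (4.63-fold lower, -2.21, SE 0.13, adjusted p = 1.42e-05). Rex2, a zinc finger gene, was 3.84-fold lower (-1.94, adjusted p = 3.90e-04) and Gm13238 2.93-fold lower (-1.55, adjusted p = 9.03e-04; -1.02 without the Y-negative arrays). Among the genes tested these were neighbours of Zfp991 (-1.32, adjusted p = 1.22e-04) and Zfp982 (-0.80, adjusted p = 0.00110), so that 5 genes in a row were lower. Zfp991 and Zfp982 were picked after their values were seen. The next gene on one side, Tnfrsf1b, differed by 0.09 (adjusted p = 0.625) and the next on the other, the zinc finger gene Zfp979, by -0.14 (adjusted p = 0.411). Zinc finger genes of this family are alike in sequence, so their probe sets may share transcripts.

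Further genes with large falls came from several groups. Ifi35, an interferon-induced gene, read 7.61 and 7.47 against 5.78 at day 0 and 8.23 and 8.29 against 5.33 and 6.26 at day 2 (4.54-fold lower, -2.18, SE 0.20, adjusted p = 2.34e-04, with 3 of 3 probe sets lower). The interferon and antigen presentation list did not follow it as a whole: 2 of 27 members were lower (Ifi35 and B2m, the light chain of class I antigen presentation, -0.79) and 2 higher (Ifit2, 0.76, and Ifitm3, 0.38), against 3% and 5.59% of all genes. With the Y-negative arrays left out B2m was lower by -0.49 and Ifit2 lost the call (adjusted p = 0.0703). Fmr1nb, an X-linked cancer-testis gene, was 3.29-fold lower (-1.72, adjusted p = 1.22e-04) and Lncenc1, a long noncoding RNA of embryonic stem cells, 3.25-fold lower (-1.70, adjusted p = 6.93e-05). Usp17la, a deubiquitinase gene, was 2.90-fold lower, with -2.06 at day 2 (adjusted p = 8.48e-05) and -0.75 at day 0 (adjusted p = 0.0684). Acot1, an acyl-CoA thioesterase, differed by -1.50 at day 0 and -1.56 at day 2, and Mcf2, a guanine nucleotide exchange factor, by -1.28 and -1.45.

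**Figure D4:**
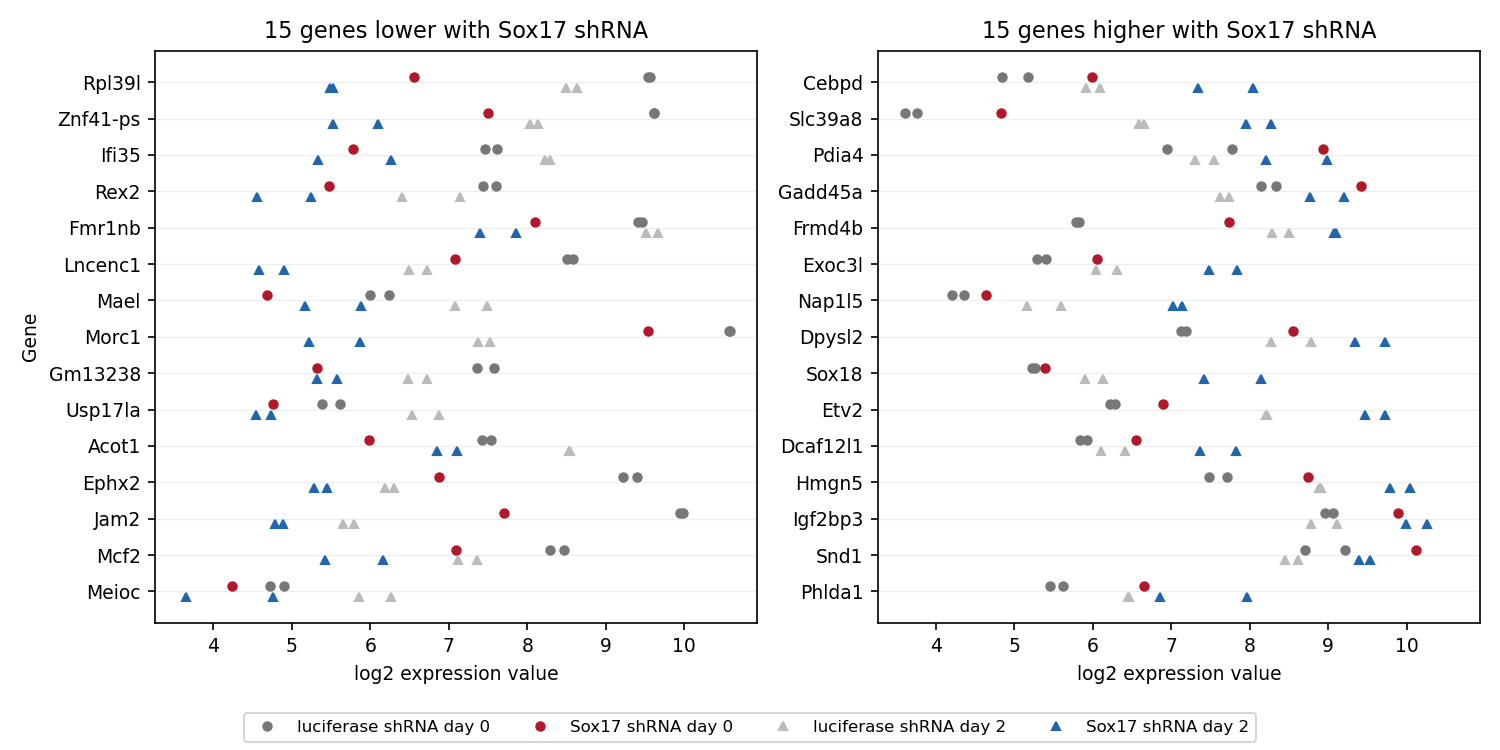
Log2 expression value (x axis) of the 15 genes with the largest falls and the 15 with the largest rises over both days among those whose arms did not overlap at either day (y axis). Circles are day 0 and triangles day 2, grey for luciferase shRNA and coloured for Sox17 shRNA, 1 symbol per array; within a day the coloured symbols lie on one side of the grey ones for all 30 genes.

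Part of the naive pluripotency genes were lower, and the core factors did not pass the test over both days. Of 27 members of the pluripotency list tested, 8 were lower and 2 higher, against 3% and 5.59% of all genes, with a median of -0.15 against 0.01 over all genes. Klf4, a naive factor, read 10.75 and 10.92 against 10.45 at day 0 and 6.16 and 6.42 against 4.89 and 4.64 at day 2 (-1.07, SE 0.20, adjusted p = 0.00679), and lost the call when all 27 arrays were fitted (0.121). Klf2, a naive factor on chromosome 8, was 1.76-fold lower against the shift of its chromosome (-0.82, SE 0.11, adjusted p = 0.00159; centred -1.04). Tfcp2l1, another naive factor, was lower by the same amount at both days (-0.71 at each, adjusted p = 9.22e-04 over both), though only 1 of its 3 probe sets had this sign. Tdgf1 (-0.48), Prdm14 (-0.69), Tcl1 (-0.73), Tbx3 (-0.42) and Nr5a2 were the other lower members. Dppa3 on chromosome 6 (0.87, centred 0.56) and Utf1 were higher. The calls of Tcl1 and Prdm14 were lost without the Sox17 shRNA array of day 0 (adjusted p = 0.217 and 0.268) and without either control array of day 0. They were also lost without the Y-negative arrays (0.157 and 0.244), where Klf4 was lower by -1.65 and Tdgf1 by -0.26. The call of Tbx3 was lost without any of 6 arrays, with 0.117 without control replicate 1 of day 2. Over the alternatives 3 to 10 members were lower. Pou5f1 (-0.13, adjusted p = 0.170), Nanog (-0.13, adjusted p = 0.669) and Sox2 (-0.14, adjusted p = 0.260) did not pass. Nanog lies on chromosome 6, where the median difference was 0.32, and its value after centring is not given here.

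Of 16 members of the primed and formative list, 6 were higher and 2 lower at day 0, against 5.18% and 2.84% of all genes, and 1 was higher and 1 lower at day 2, against 5.63% and 3.14%. The day 0 values rest on 1 Sox17 shRNA array, and the list's change between days was not tested. Fgf5 was higher at day 0 (0.82, adjusted p = 0.00719), with 3.69 and 3.61 against 4.47, values near background, and its difference at day 2 was -0.18 (adjusted p = 0.480). Sox2 was lower at day 0 (-0.33, adjusted p = 0.0281) and differed by -0.02 at day 2. Over both days 1 primed gene was lower, Foxd3, a forkhead transcription factor (-0.38), a call lost without any of 6 arrays (adjusted p = 0.245 without the Sox17 shRNA array of day 0) and without the Y-negative arrays (0.640).

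Away from chromosomes 6 and 8, the largest rises included regulators of blood vessel cells. Etv2, the factor that starts the endothelial programme, read 6.29 and 6.22 against 6.90 at day 0 and 8.21 and 8.21 against 9.73 and 9.47 at day 2 (2.13-fold higher, 1.09, SE 0.14, adjusted p = 0.00125). Sox18, an endothelial relative of Sox17, read 5.26 and 5.23 against 5.40 and then 6.13 and 5.91 against 8.14 and 7.42. Its difference lay at day 2 (1.77, adjusted p = 4.17e-04) rather than day 0 (0.15, adjusted p = 0.791), and the change between the days passed the test (1.61, adjusted p = 0.0337). Over both days Sox18 was called (1.12, adjusted p = 0.0328), a call lost under several alternatives, among them all 27 arrays (0.104) and without each array of day 2 in turn (0.0576 to 0.132, highest without control replicate 1). With Gata2, a factor of blood and endothelial cells on chromosome 6 (0.69, adjusted p = 0.0216), 3 of 21 members of the endothelial list were higher and 0 lower, against 5.59% and 3% of all genes, and 1 to 7 were higher over the alternatives. The call of Gata2 was lost without any of 4 arrays (0.0984 without control replicate 1 of day 2), after centring by chromosome (0.38, adjusted p = 0.218) and without the Y-negative arrays (0.120). Of the defining endothelial markers, Cdh5 lay between 4.42 and 5.12 and Tek between 4.60 and 5.74 on all 7 arrays, and Pecam1, also expressed in stem cells, read 8.60 and 8.36 against 8.02 at day 0 and 5.75 and 5.55 against 6.10 and 5.76 at day 2.

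Of 24 members of the Fgf list 5 were higher and 1 (Fgf17, a ligand, -0.42) was lower, against 5.59% and 3% of all genes, with a median of 0.12. Dusp6, a phosphatase that switches off ERK, read 8.04 and 7.96 against 9.17 at day 0 and 9.94 and 9.82 against 10.75 and 10.26 at day 2 (1.80-fold higher, 0.84, SE 0.14, adjusted p = 0.00342). Its groups did not overlap, and without the Y-negative arrays the difference was 0.38 (adjusted p = 0.0895). Dusp4, a related phosphatase on chromosome 8, was 0.99 higher (adjusted p = 0.0177; centred 0.76), Spry1, an inhibitor of receptor tyrosine kinase signals, 0.47 (adjusted p = 0.0152) and Phlda1 1.02 (adjusted p = 0.0112). Without control replicate 1 of day 2 the calls of Dusp4 (adjusted p = 0.0836), Spry1 (0.0702) and Fgf17 (0.101) were lost. Without the Y-negative arrays Phlda1 (0.41, adjusted p = 0.222) and Fgf17 (0.532) were not called. Over the alternatives 2 to 8 members were higher, and 2 without the Y-negative arrays.

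The remaining large rises off chromosomes 6 and 8 had no list in common. Cebpd, a transcription factor of stress and differentiation, read 4.84 and 5.18 against 5.99 at day 0 and 5.91 and 6.09 against 8.04 and 7.34 at day 2 (2.65-fold higher, 1.41, SE 0.19, adjusted p = 0.00151). Slc39a8, a zinc and manganese importer, read 3.75 and 3.61 against 4.83 and 6.58 and 6.66 against 8.28 and 7.96 (2.56-fold higher, 1.36, adjusted p = 3.03e-04). For both genes the arms did not overlap at either day, which the rule that named them required. Hmgn5, an X-linked nucleosome-binding protein (1.07, adjusted p = 2.34e-04), Dcaf12l1, also on X (1.07, adjusted p = 0.00238), and Dpysl2, a cytoskeletal regulator (1.16, adjusted p = 9.99e-04, with 1 of 2 probe sets of this sign), were named by the same rule. Sox4, a progenitor factor, was higher on 7 of 8 probe sets (0.67, adjusted p = 9.99e-04).

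Some imprinted genes, which are expressed from 1 parental copy, were lower and some higher. Meg3, a noncoding RNA of the imprinted Dlk1 region, read 11.42 and 11.38 against 10.62 at day 0 and 11.23 and 11.33 against 10.50 and 10.39 at day 2. It was 1.75-fold lower (-0.81, SE 0.06, adjusted p = 6.93e-05) with 11 of 11 probe sets of the same sign, and Rian, a transcript of the same region, was lower with 4 of 4 (-0.60, SE 0.13, adjusted p = 0.0145). Mest (0.78, adjusted p = 0.00225; centred 0.47) and Nap1l5 (1.16, adjusted p = 0.0135; centred 0.86, adjusted p = 0.0740), both on chromosome 6, were higher, as were Gnas (0.37) and H13 (0.63), with some probe sets of the other sign. Without control replicate 1 of day 2 the calls of Nap1l5 (adjusted p = 0.0605), Gnas (0.0867) and H13 (0.124) were lost, and without the Y-negative arrays H13 was 1.14 higher. In all, 4 of 26 imprinted genes tested were higher and 2 lower, against 5.59% and 3% of all genes, with a median of -0.07. Without the Y-negative arrays 5 were higher and 4 lower, and over the alternatives 1 to 5 were higher and 1 to 5 lower.

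Of 26 basement membrane genes tested 6 were lower and 0 higher (median -0.23), against 3% and 5.59% of all genes. At day 0, 3 were lower and 1 higher, against 2.84% and 5.18% of all genes, and at day 2, 10 were lower and 0 higher, against 3.14% and 5.63%; the list's change between days was not tested. Lamc1, a laminin chain, was lower by -0.60 (SE 0.11, adjusted p = 0.00626) and Plod2, a collagen-modifying enzyme, by -0.97 (SE 0.20, adjusted p = 0.0134). Sparc, a matrix protein, read 10.50 and 10.58 against 10.49 at day 0 and 11.15 and 11.20 against 10.23 and 9.77 at day 2. Without control replicate 1 of day 2 the calls of Plod2 (adjusted p = 0.0726) and Sparc (0.153) were lost, and without the Y-negative arrays Sparc was lower by -1.41. Over the alternatives 2 to 12 members were lower, with 12 without the Y-negative arrays. Markers of primitive endoderm, which makes these proteins, read above the controls at day 0 and mostly below them at day 2. At day 0 all 5 markers read above both controls on the Sox17 shRNA array. Dab2 then read 4.97 and 5.18 against 6.47, Pdgfra 4.81 and 4.68 against 5.58, Gata6 5.22 and 5.33 against 5.80, and Gata4 5.31 and 5.47 against 5.61, of which Pdgfra passed the test (0.84, adjusted p = 0.0446). Sox7 read 4.69 and 4.81 against 5.02. At day 2 Dab2 read 9.86 and 9.60 in controls but 9.72 on replicate 1 and 7.43 on replicate 2 of the Sox17 shRNA arm. Gata6 read 6.92 and 6.75 against 6.31 and 5.69, Gata4 6.39 and 6.57 against 6.14 and 5.68, and Pdgfra 6.16 and 5.87 against 5.41 and 5.17. At day 2 Gata6 (-0.84, adjusted p = 0.0186) and Pdgfra (-0.72, adjusted p = 0.0310) passed the test and Gata4 (-0.57, adjusted p = 0.0764) and Dab2 (-1.16, adjusted p = 0.190) did not. The part of these cells in the result was not tested. None of 22 members of the primitive and visceral endoderm list passed over both days (limma, 0 called, median -0.23). At day 0, 2 were higher and 2 lower, against 5.18% and 2.84% of all genes, and at day 2, 4 were lower and 0 higher, against 3.14% and 5.63%.

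Of the hypoxia and glycolysis genes some were lower and some higher. Of 26 members tested, 5 were lower (Aldoc, Bnip3, P4ha1, Pfkl and Pgk1), all off chromosomes 6 and 8. Both higher ones, Gapdh and Hk2, lie on chromosome 6. Of all genes 3% were lower and 5.59% higher. On chromosome 6, 279 of 624 genes were higher, and of all lower genes 3 lay on chromosomes 6 and 8. Nothing is therefore read from where these members lie. Aldoc, a glycolytic enzyme, was lower by -0.75 (SE 0.09, adjusted p = 6.94e-04) and Bnip3, a mitophagy receptor, by -0.78 (SE 0.12, adjusted p = 0.00237). With all 27 arrays in the fit 0 members were lower, and 3 were without control replicate 1 of day 2. Of 32 proliferation genes 4 were higher (Ccna2, Mcm2, Myc and Rrm2) and 0 lower, against 5.59% and 3% of all genes, the largest being Myc (0.51, adjusted p = 0.0400) and Mcm2, on chromosome 6 (0.46, centred 0.15). The call of Myc was lost without any of 5 arrays (0.237 without the Sox17 shRNA array of day 0), and those of Ccna2 and Rrm2 without control replicate 1 of day 2 (0.0658 and 0.0989). Those of Myc (0.532) and Ccna2 (0.0621) were also lost without the Y-negative arrays. Of 14 members of the RNA interference machinery 0 were called (median 0.02), beside 8.59% of all genes, and nothing is read from this count in so short a list.

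The difference between the arms changed from day 0 to day 2 for 193 genes (1.56%), of which 70 had a more positive (0.564%) and 123 a more negative (0.991%) difference at day 2. Of the 1066 genes called over both days 22 were among them. Lefty2, a Nodal antagonist, read 9.84 and 9.40 in controls and 6.91 with Sox17 shRNA at day 0, but 6.90 and 7.09 against 6.91 and 7.50 at day 2 (change 2.93, adjusted p = 9.75e-04). Hormad1 read 6.94 and 6.59 against 3.83 at day 0 and lay between 3.21 and 3.56 in both arms at day 2 (change 2.68, adjusted p = 0.00820). Serpinb6c, a protease inhibitor gene (2.76), Crxos, a homeobox gene (2.49), and Stxbp5, a regulator of membrane fusion (2.39), followed the same course: lower with Sox17 shRNA at day 0, near or at background in both arms or equal at day 2. Id4, an inhibitor of helix-loop-helix factors, crossed over, from 7.98 and 7.88 against 6.65 at day 0 to 5.20 and 5.74 against 7.01 and 6.41 at day 2 (change 2.52, adjusted p = 0.00542).

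Among the 6 genes named for a negative change, Lama1, a laminin chain, read 7.94 and 7.81 against 8.49 at day 0 and 8.75 and 8.96 against 7.52 and 5.62 at day 2 (change -2.90, adjusted p = 0.0489). Col4a1, a basement membrane collagen, read 6.48 and 6.79 against 7.99 and then 9.26 and 9.41 against 9.05 and 7.62 (change -2.36, adjusted p = 0.0438). In both, the lowest Sox17 shRNA array of day 2 was replicate 2, as for Dab2. Without any 1 of the 4 control arrays both calls were lost (adjusted p = 0.134 to 0.233 for Lama1 and 0.123 to 0.177 for Col4a1). Serpinh1, a collagen chaperone (-2.33, adjusted p = 0.00895), and Lrp2, an endocytic receptor (-2.35, adjusted p = 5.71e-04), were higher with Sox17 shRNA at day 0, Lrp2 at 8.21 against 6.13 and 5.97. Gadd45g, a stress gene, was high, among the 7 arrays, on the Sox17 shRNA array of day 0 alone (8.68 against 6.36 and 6.44, change -2.27). Zfp946, a zinc finger gene, was lower at day 2 but not at day 0 (change -2.06, adjusted p = 0.00266). These changes rest on the single Sox17 shRNA array of day 0, and the count was 43 and 8 without control replicate 1 or 2 of day 0, 45 and 31 without control replicate 1 or 2 of day 2, and 330 without the day 2 array of the Sox17 shRNA arm that is Y-negative. The calls of Hormad1 and Crxos were lost without either control array of day 0 (adjusted p = 0.0668 to 0.0811), those of Serpinb6c and Id4 without replicate 2 of these (0.0687 for both), that of Gadd45g without any 1 of the 4 control arrays (0.0584 to 0.0935), and that of Serpinh1 without control replicate 2 of day 0 or either control array of day 2 (0.0560 to 0.0913). Of the 12 genes named for a change, Lefty2, Stxbp5 and Zfp946 kept the call under every alternative run. The change cannot be fitted without the Sox17 shRNA array of day 0, which is also Y-negative. No alternative therefore shows how far these calls depend on that array.

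Whether the early differences lasted was read from the other 20 arrays, of days 4 to 10, where 2823 of the 12408 genes (22.8%) differed on average, 1644 higher (13.2%) and 1179 lower (9.5%). Of the genes higher early, 616 of 694 had the same sign later (88.8%), 463 were called higher (66.7%) and 19 lower. Of all genes tested, 342 of 624 on chromosome 6 and 429 of 689 on chromosome 8 were higher later, beside 13.2% of all genes. Among the genes higher early, 241 of the 279 genes of chromosome 6 (86.4%) and 144 of the 166 of chromosome 8 (86.7%) were called again, against 78 of the 249 elsewhere (31.3%). Of the 372 genes lower early, 265 had the same sign (71.2%), 129 were called lower (34.7%) and 31 higher. A test of later against early differences called 466 genes (3.76%), with 247 more positive (1.99%) and 219 more negative (1.76%) later, 69 of them among the early higher and 97 among the early lower genes.

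Some of the largest early falls were not seen later, when the control arm was low too. Rpl39l read 4.59 and 5.27 in the control arm and 4.49 and 4.89 with Sox17 shRNA at day 4, and over days 4 to 10 the arms differed by -0.05 (adjusted p = 0.777), a change of 2.97 from the early days (adjusted p = 1.19e-08). Rex2 went the same way, from 7.14 and 6.41 in controls at day 2 to 4.19 and 4.20 at day 4 (change 2.07, adjusted p = 2.70e-05). Other genes had the opposite sign later. Ifi35 read 4.96 and 5.62 in controls and 6.35 and 5.93 with Sox17 shRNA at day 6, and over days 4 to 10 it was higher with Sox17 shRNA (0.71, adjusted p = 5.89e-04; change 2.82). Morc1 was 1.30 higher later (adjusted p = 6.67e-04; change 2.77) and Lgals3, which encodes galectin-3, 1.41 higher (adjusted p = 0.0109; change 2.63). Over days 4 to 10 Morc1 read 3.27 to 5.3 in controls, near background, and 4.28 to 6.51 with Sox17 shRNA. Its later rise thus lay largely between low values.

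Some genes higher early were lower later. Epas1, the hypoxia factor HIF-2 alpha, was 0.70 higher early (adjusted p = 0.0135) and read 11.07 and 11.05 in controls but 7.96 and 8.22 with Sox17 shRNA at day 10, with a later difference of -1.73 (adjusted p = 2.04e-06; change -2.51). Its early adjusted p was 0.0775 without the Sox17 shRNA array of day 0, 0.0573 without control replicate 1 of day 2 and 0.248 without the Y-negative arrays. Pax6, a neural and eye factor, went from 0.58 to -0.99 (change -1.54, adjusted p = 1.73e-04), and Gyg, which primes glycogen synthesis, from 0.38 to -1.15 (change -1.53, adjusted p = 1.52e-06). The early calls of Pax6 (0.0808) and Gyg (0.123) were lost without control replicate 1 of day 2, and that of Pax6 without the Y-negative arrays (0.131). Slc39a8 lost its early rise (-0.35 later, adjusted p = 0.197; change -1.67). Mex3b, an RNA-binding protein gene, read 0.94 early and -0.59 later, a change that did not pass (adjusted p = 0.0802), and its early call was lost without the Y-negative arrays (0.112).

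**Figure D5:**
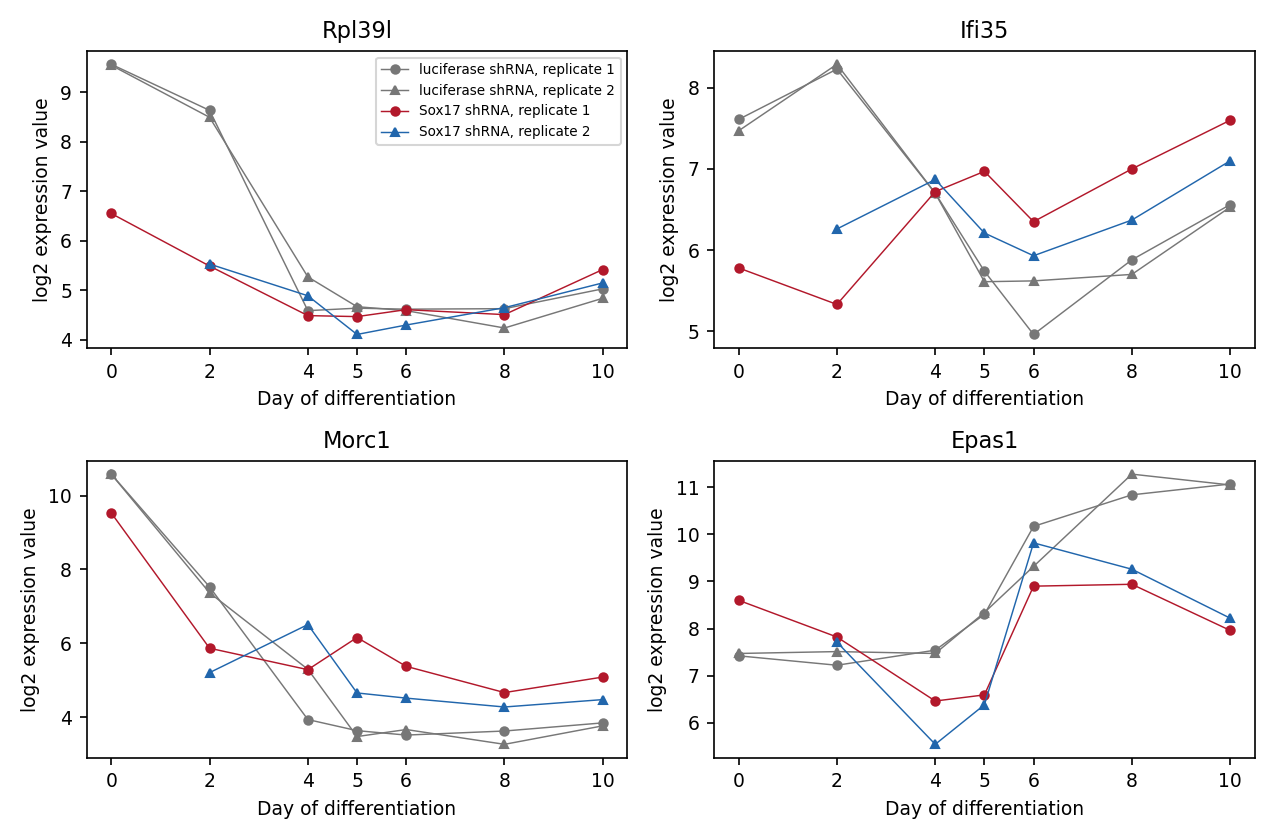
Log2 expression values (y axis) of Rpl39l, Ifi35, Morc1 and Epas1 by day of differentiation (x axis) on all 27 arrays, with lines joining arrays of the same arm and replicate number. At days 0 and 2 all 3 Sox17 shRNA arrays lie below the controls for the first 3 genes, and at day 10 both lie above for Ifi35 and Morc1 and below for Epas1. The day 10 values of Morc1 are low in both arms (3.85 and 3.77 in controls against 5.09 and 4.48).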

How the data were processed

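Total RNA of 27 cultures was measured, 1 Affymetrix array each. The deposited values are log2 expression values that the authors made with RMA (background correction, quantile normalization and probe summary), per the submitters' processing notes; its version is not given in the sources used here. Quantile normalization makes each difference a relative one within its array, and folds against low levels are understated. Arrays have no read depth, and their number limits the precision.

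Of 45101 probe sets, 34958 had 1 gene symbol in the platform annotation, 932 several, and 9211 were not listed. A probe set was kept if 2 or more of the 7 arrays of days 0 and 2 exceeded the overall median of 5.53 (21091 were), and for each of 12408 genes the brightest one on average was tested. Chromosomes and gene order were taken from RefSeq (GRCm38.p6).

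Differences were fitted with limma 3.58.1 in R 4.3.3 (intensity trend), two-sided, with Benjamini-Hochberg adjustment over all genes: day plus arm for the shared difference (4 residual degrees of freedom), 4 group means for each day and for the change between days (3), 20 arrays for days 4 to 10 and all 27 for later against early. SE are those of the moderated fit. p-values measure the spread between these arrays, which may be technical, and treat days as independent. Centring by chromosome subtracts from each array the chromosome's median difference from the same-day control. The fits were tested on simulated data.

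The comparison, the 33 gene lists and the rule for named genes were chosen with earlier results of these data known. The rule names the 15 genes of each sign with the largest shared difference among those called whose arms did not overlap at either day, Sox17, Hhex, Cer1, Sox7, Sox18 and Rpl39, up to 6 called members of each list by size, the 6 genes of each sign with the largest change between days, and the 5 of each sign with the largest change to later days. Marker and Y genes were given as checks of identity.

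Alternatives were other array sets, day weights, low-value filters, normalization, no intensity trend, averaged probe sets, a replicate block and each array left out. Added after seeing the data were fits without genes of chromosomes 6, 8 and Y, with arrays centred by chromosome, and without the Y-negative arrays.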

Additional observations from a re-analysis of the deposited data

Results flagged for a closer look

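For some named genes the difference between the arms at day 2 departed from that at day 0 by limma's test of the change itself (adjusted p under 0.05). The change, in log2 units, was positive for Sox18 (1.61), Ephx2 (1.55), Jam2 (1.37), Lefty2 (2.93), Serpinb6c (2.76), Hormad1 (2.68), Id4 (2.52), Crxos (2.49), Stxbp5 (2.39). It was negative for Frmd4b (-1.23), Klf4 (-1.14), Sparc (-1.12), Anxa2 (-0.99), Fgfbp1 (-1.46), Lama1 (-2.90), Col4a1 (-2.36), Lrp2 (-2.35), Serpinh1 (-2.33), Gadd45g (-2.27), Zfp946 (-2.06).

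For others the mean difference of days 4 to 10 departed from that of days 0 and 2 by the same kind of test over all 27 arrays. It was more positive later for Rpl39l (2.97), Ifi35 (2.82), Morc1 (2.77), Lgals3 (2.63), Rex2 (2.07). It was more negative later for Epas1 (-2.51), Slc39a8 (-1.67), Pax6 (-1.54), Gyg (-1.53).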

How the results depend on the processing

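The count over both days (1066) was 1773 with the days weighted equally, 446 without the genes of chromosomes 6, 8 and Y (185 higher, 261 lower), 707 with arrays centred by chromosome (342 higher, 365 lower), and 575 to 1091 with 1 array left out, lowest without control replicate 1 of day 2. The day 0 count (996) was 282 with all 27 arrays, 375 with no intensity trend, 642 without the genes of those chromosomes, and 274 to 1260 with 1 array left out. The day 2 count (1088) was 354 with all 27 arrays, 591 with no trend, 432 without those genes, 615 when centred, and 448 to 1091 with 1 array left out. The count of changes between days (193) was 50 with all 27 arrays, 23 with no trend, and 8 to 330 with 1 array left out. The count for days 4 to 10 (2823) was 1843 without those genes and 1969 to 3099 with 1 day left out. The chromosome 6 median (0.318) was 0.127 with no filter on low values and 0.296 to 0.333 with 1 array left out; that of chromosome 8 (0.217) was 0.175 to 0.312. The causes were not tested. Of the named genes, 36 of the 110 with a shared difference kept their call, or its lack, under every alternative run (16 to 18 each). For the change between days 3 of 12 did so (14 or 15 alternatives each). For later against early all 10 did so, but under only 5 alternatives each, none of which left out an array or a day. These shares are therefore not comparable. Signs turned for Sox7 (-0.575 to 0.049 with 1 array left out, positive without the second day 2 array with Sox17 shRNA) and Gapdh (-0.092 when centred). Same-numbered arrays of both arms deviated together with r 0.124, 0.685, 0.244, 0.098, 0.083 and 0.094 at days 2, 4, 5, 6, 8 and 10, which is not over 0.1 throughout, so they were not taken as pairs. Within the Sox17 shRNA arm the number follows the Y signal on all 13 arrays, so arrays of different days may share a source, while the day-plus-arm fit treats them as independent. With a replicate block the counts were 919 over both days, 911 at day 0, 1146 at day 2 and 170 for the change between days. Probes near background limit the folds of low genes.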
